A study of Mus musculus with 22 samples.

Results

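Levels of 10 genes of fibroblast growth factor (FGF) signalling were followed in mouse aorta. They are the receptor genes Fgfr2, Fgfr1 and Fgfr3, the ligand genes Fgf7, Fgf1, Fgf2 and Fgf10, and the Sprouty inhibitor genes Spry1, Spry2 and Spry4. Every probe set of the array that the platform annotation ties to 1 of these symbols and to no other was taken, which gave 22 of 45101 probe sets for 10 of 18193 named genes. Fgfr2 was noticed because of its lower signal with estradiol in WT aortas, and the other 9 genes were added as its family and pathway. Values of WT aortas with estradiol against placebo, and differences that contain them, are therefore given for these genes as a description.

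The arrays came from ovariectomised female C57BL/6 mice aged 2.5 to 4.5 months implanted for 7 to 8 days with pellets of 17beta-estradiol (E2) or of placebo. Mice lacking estrogen receptor alpha (ERaKO) gave 3 arrays with E2 and 3 with placebo, mice lacking estrogen receptor beta (ERbKO) likewise gave 3 with E2 and 3 with placebo, and wild-type littermates (WT) gave 5 with E2 and 5 with placebo. Each array held the RNA of 1 aorta, and all groups, the controls included, lacked ovaries. The labels do not say which knockout alleles were used. In whole aorta, fewer cells of a type and less RNA per cell cannot be told apart.

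FGF ligands bind receptor tyrosine kinases at the cell surface together with heparan sulfate, and the receptor passes the signal through adaptor proteins to the Ras and MAP kinase cascade. Sprouty proteins are made in response and restrain that cascade. Alternative splicing gives FGFR2 an epithelial form, which binds FGF7 and FGF10, and a mesenchymal form with other ligand preferences, while FGF1 binds all the receptors. In the artery wall, FGF1 and FGF2 are known as growth factors for smooth muscle and endothelial cells.

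Estrogen receptors bind DNA at paired copies of the half-site GGTCA, which reads TGACC on the other strand. The stretch before the annotated start was read for the 3 members with the largest E2 differences in WT, Fgfr2, Fgf7 and Fgfr3, to show where a half-site occurs (RefSeq, GRCm38.p6, 250 bases before the start, gene strand, 5′ to 3′, half-sites in capitals).
Fgfr2: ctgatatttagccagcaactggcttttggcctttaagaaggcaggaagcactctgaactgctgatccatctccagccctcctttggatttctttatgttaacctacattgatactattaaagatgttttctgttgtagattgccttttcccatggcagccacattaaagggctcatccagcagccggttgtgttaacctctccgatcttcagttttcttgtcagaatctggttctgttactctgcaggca
Fgf7: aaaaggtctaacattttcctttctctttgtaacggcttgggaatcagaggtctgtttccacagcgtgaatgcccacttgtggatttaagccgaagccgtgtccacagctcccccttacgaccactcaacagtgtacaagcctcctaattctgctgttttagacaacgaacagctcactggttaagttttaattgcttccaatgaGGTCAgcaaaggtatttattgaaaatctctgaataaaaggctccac
Fgfr3: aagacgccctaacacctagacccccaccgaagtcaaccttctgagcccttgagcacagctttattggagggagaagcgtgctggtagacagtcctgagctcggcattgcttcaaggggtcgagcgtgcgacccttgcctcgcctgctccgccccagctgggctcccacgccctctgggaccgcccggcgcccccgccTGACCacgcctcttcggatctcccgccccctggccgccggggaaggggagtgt
The Fgfr2 stretch, chr7:130266809-130267058 on the minus strand, held 0 half-sites. The Fgf7 stretch, chr2:126034408-126034657 on the plus strand, held 1, beginning 46 bases before the start, and the Fgfr3 stretch, chr5:33721474-33721723 on the plus strand, held 1, beginning 53 bases before the start. A second annotated start of Fgfr3 has a window at chr5:33722056-33722305, with 0. Of 32851 mouse promoter windows of this length, 35.2% held a half-site on either strand and 0.0639% held the full palindrome GGTCANNNTGACC, which contains 2 half-sites. Of the 10 members, 7 were matched to 8 windows, and 0 of these held the full palindrome. A match is a description of the letters, and these windows cover only annotated starts.

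Of the 10 genes, 7 could be followed. Testing required a log2 signal above 4 on 3 or more arrays, which kept 13 of the 22 member probe sets and 20410 of 45101 in all. Fgfr2, Fgfr1, Fgfr3, Fgf7, Fgf1, Spry2 and Spry4 each had a probe set above 4 on all 22 arrays. Where a gene had several, the probe set with the highest mean stands for it. Fgf2, Fgf10 and Spry1, each with 1 probe set, were not tested: Fgf2 lay between 2.59 and 3.39, Fgf10 between 2.18 and 2.32, and Spry1 between 2.26 and 4.21, above 4 on 1 array only. The other 6 untested probe sets belong to Fgfr1, Fgfr2, Fgfr3, Spry2 and Spry4 and stayed below 4 on every array. An unmeasured probe set does not show that the gene was silent.

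Checks on the arrays concern all of the values below. Esr1, which encodes estrogen receptor alpha, had log2 signals of 3.48 to 5.50 in the 6 ERaKO aortas, against 8.04 to 9.17 in the 10 WT aortas. The Esr2 probe set stayed between 2.34 and 2.72 on all arrays and so does not check the ERbKO label. Pgr, the progesterone receptor gene and a known estrogen target, lay at 8.95 to 9.88 in WT aortas with E2, against 6.53 to 8.89 in WT aortas with placebo. In ERbKO aortas it lay at 8.62 to 9.43 with E2, against 7.31 to 7.87 with placebo. In ERaKO aortas the ranges overlapped, at 8.29 to 8.89 with E2, against 7.58 to 8.39 with placebo. Smooth muscle markers were all tested, with group means between 11.29 and 11.81, but brown adipocyte markers were also high, with group means between 9.53 and 10.60. Skeletal muscle markers stood at 9.20 in WT placebo 1, against 3.20 for the lowest WT placebo array. WT placebo 4 was the lowest of all arrays for smooth muscle (10.63) and adventitial fibroblast markers (10.95). It was the highest for brown (11.40) and white adipocyte markers (11.54). The median over all named genes was 0.13 higher in ERaKO than in ERbKO aortas with placebo, 0.15 higher with E2, and 0.12 higher in ERaKO than in WT aortas with placebo, so small differences between genotypes in that direction are shared by most genes.

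Fgfr2, which encodes FGF receptor 2, was the member with the widest range between groups. Its log2 signals were 7.83, 8.50 and 7.81 in ERaKO aortas with E2, against 7.29, 7.33 and 7.29 in ERaKO aortas with placebo. They were 7.32, 7.04 and 6.63 in ERbKO aortas with E2, against 7.46, 7.60 and 7.74 in ERbKO aortas with placebo. In WT they were 6.17, 6.54, 5.92, 6.47 and 6.47 with E2, against 7.32, 7.61, 7.68, 6.76 and 7.09 with placebo. In all 3 genotypes the E2 and placebo arrays did not overlap, with E2 on the high side in ERaKO and on the low side in ERbKO and WT.

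The difference between E2 and placebo for Fgfr2 was 0.75 ± 0.25 in ERaKO (SE of the limma fit, log2 scale, a ratio of 1.68). It did not pass the threshold after adjustment over all probe sets (adjusted p = 0.65). None of the 31 alternatives, which included a block for replicate number, called it (lowest adjusted p 0.20). In ERbKO the difference was -0.60 ± 0.25 (ratio 0.66), which did not pass either (adjusted p = 1.0). In WT it was -0.98 ± 0.19 (ratio 0.51), the value that led to the choice of the gene. The E2 arrays lay wholly above the placebo arrays for 3.15% of named genes in ERaKO, and wholly below them for 5.9% in ERbKO and 0.351% in WT.

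**Figure D1:**
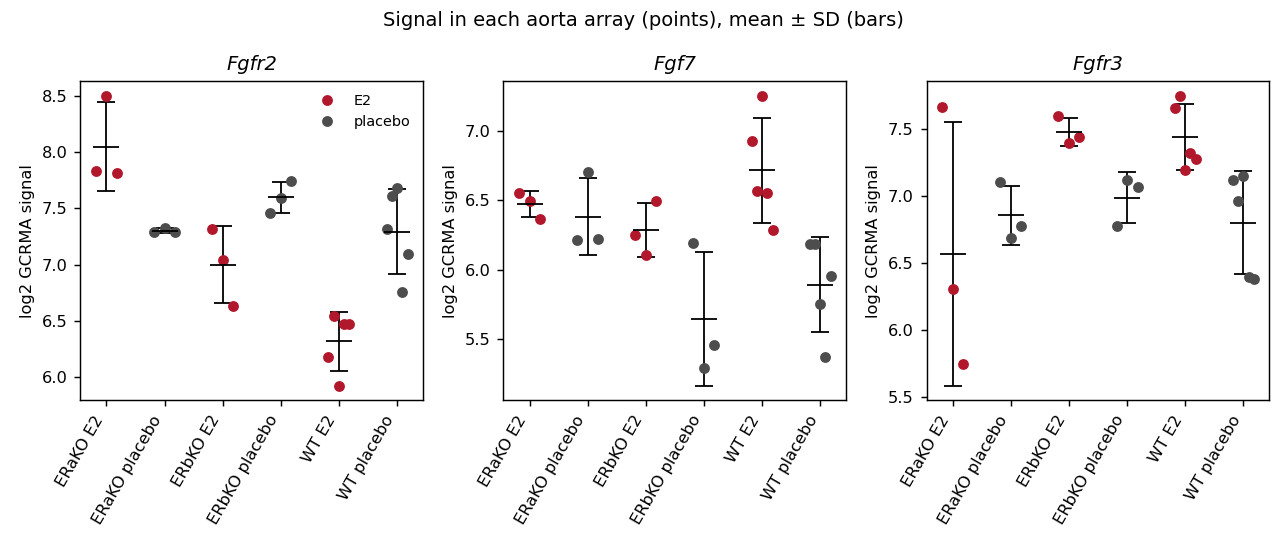
Log2 signal (vertical axis) of Fgfr2, Fgf7 and Fgfr3 in each aorta, by group (horizontal axis); points are arrays, red for E2 and grey for placebo, and bars are mean ± SD. For Fgfr2 the ERaKO E2 arrays lie highest, at 7.81 to 8.50, and the WT E2 arrays lowest, at 5.92 to 6.54.

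Ordered by group mean, Fgfr2 stood at 8.05 ± 0.39 in ERaKO with E2, 7.60 ± 0.14 in ERbKO with placebo, 7.30 ± 0.02 in ERaKO with placebo, 7.29 ± 0.38 in WT with placebo, 7.00 ± 0.34 in ERbKO with E2 and 6.31 ± 0.26 in WT with E2 (SD, n = 3 in knockout groups and n = 5 in WT groups). Ranges overlapped between ERaKO placebo and WT placebo, and between WT placebo and ERbKO E2. The other neighbours in this order did not overlap. With placebo ERaKO lay wholly below ERbKO, as for 5.76% of named genes. With E2 ERbKO lay wholly above WT, as for 1.35%, and WT with E2 is the group in which Fgfr2 was noticed. No such share is given for ERaKO with E2 against ERbKO with placebo. The placebo group means thus lay between 7.29 and 7.60, and the E2 group means between 6.31 and 8.05.

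With E2, Fgfr2 was 1.74 ± 0.22 higher in ERaKO than in WT aortas, a ratio of 3.33 (limma, adjusted p = 3.1e-04). The WT E2 arrays are those in which the gene was noticed, so neither this p nor any call of Fgfr2 in this contrast is independent of the choice. The count of members called in this contrast was 1 of 7, and 0.24% of all tested probe sets were called. The ERaKO arrays lay wholly above the WT arrays, as they did for 2.46% of named genes. The call was kept in each of the 22 fits that left out 1 array. It was missed when only the 2 E2 groups entered the fit (adjusted p = 0.051). With placebo the same difference was 0.01 ± 0.22 (adjusted p = 1.0), and it turned to -0.13 when arrays were centred on their medians.

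The ERaKO and ERbKO group means can be compared without those of WT, although all 22 arrays set the spread of the fit. With E2, Fgfr2 was 1.05 ± 0.25 higher in ERaKO than in ERbKO aortas, and the arrays did not overlap (ratio 2.07, adjusted p = 0.099). Non-overlap on the high side occurred for 11.8% of named genes in this contrast. Of the 31 alternatives, 2 gave a call, array weights (adjusted p = 0.039) and leaving out WT placebo 4 (0.045). The others did not, with an adjusted p of 0.19 with the replicate block, 0.39 with only the groups of the contrast and 0.57 without ERaKO E2 2. With placebo the difference was -0.30 ± 0.25 (adjusted p = 0.66), with all ERaKO arrays lower, as for 5.76% of named genes. The E2 difference itself was 1.35 ± 0.35 larger in ERaKO than in ERbKO (adjusted p = 0.79).

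The differences that contain WT aortas were 1.72 ± 0.31 for the E2 difference in ERaKO minus that in WT, and 0.38 ± 0.31 for ERbKO minus WT. ERbKO aortas with E2 were 0.68 ± 0.22 above WT aortas with E2 (adjusted p = 0.83), with all ERbKO arrays higher, as for 1.35% of named genes. With placebo ERbKO exceeded WT by 0.31 ± 0.22 (adjusted p = 0.99). The second probe set of Fgfr2 gave the same directions, with smaller sizes in ERaKO and WT and a slightly larger one in ERbKO, 0.34 ± 0.44 in ERaKO, -0.66 ± 0.44 in ERbKO and -0.69 ± 0.34 in WT for E2 minus placebo. Its arrays overlapped in each genotype, and ERaKO exceeded WT with E2 by 1.02 ± 0.40 (adjusted p = 0.52).

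**Figure D2:**
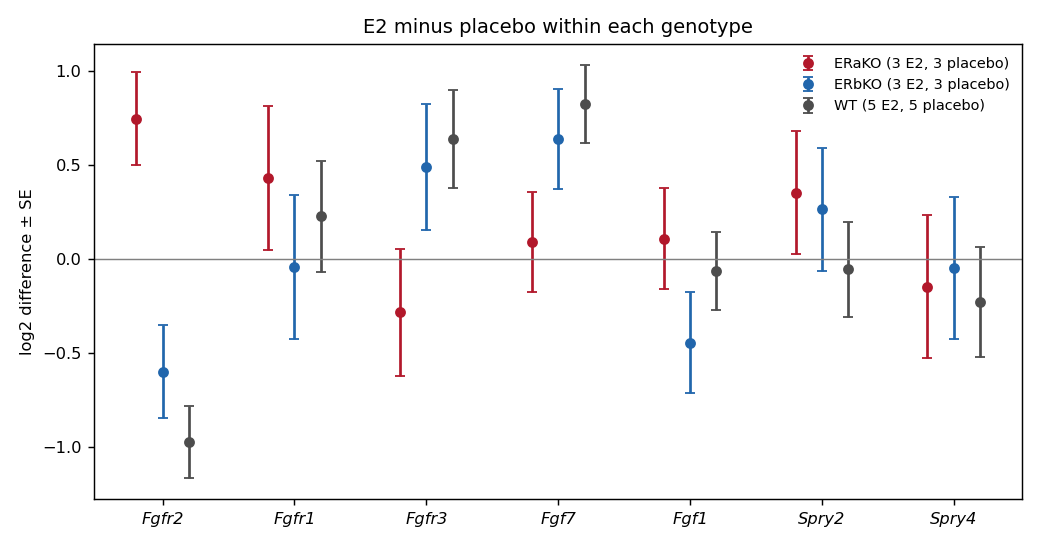
Difference between E2 and placebo (vertical axis, log2) for the 7 member genes with a tested probe set (horizontal axis) in ERaKO, ERbKO and WT aortas; points are differences of group means and bars are SE of the limma fit. Fgfr2 lies at 0.75 in ERaKO, -0.60 in ERbKO and -0.98 in WT.

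Fgfr1, which encodes the receptor most used by mesenchymal cells, overlapped between E2 and placebo in every genotype. Its log2 signals were 9.48, 10.64 and 10.34 in ERaKO aortas with E2, against 9.11, 9.97 and 10.09 in ERaKO aortas with placebo, a difference of 0.43 ± 0.38 (adjusted p = 0.91). In ERbKO they were 9.88, 8.79 and 8.74 with E2, against 9.54, 8.95 and 9.05 with placebo, a difference of -0.04 ± 0.38 (adjusted p = 1.0). In WT they ranged from 8.81 to 10.12 with E2, against 8.91 to 9.72 with placebo, a difference of 0.23 ± 0.30. The second Fgfr1 probe set differed in sign from the first in WT and ERbKO. Its means were 7.38 with E2 against 7.43 with placebo in WT, and 7.49 against 7.38 in ERbKO. The ERaKO arrays were on the high side: with E2 they exceeded ERbKO by 1.02 ± 0.38 (adjusted p = 0.33) and WT by 0.73 ± 0.34 (adjusted p = 0.63). Arrays of the groups overlapped in both comparisons, and neither was called.

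Fgfr3, which encodes the receptor that restrains growth of cartilage, was on average higher with E2 in ERbKO and WT and lower in ERaKO. In ERaKO its log2 signals were 7.66, 6.31 and 5.75 with E2, against 7.11, 6.69 and 6.77 with placebo (-0.29 ± 0.34, adjusted p = 0.95). In ERbKO they were 7.60, 7.40 and 7.44 with E2, against 6.78, 7.12 and 7.07 with placebo (0.49 ± 0.34, adjusted p = 1.0). In WT they were 7.66, 7.75, 7.20, 7.32 and 7.28 with E2, against 7.12, 6.96, 7.15, 6.40 and 6.38 with placebo (0.64 ± 0.26). The E2 arrays lay wholly above placebo in ERbKO, as for 3.92% of named genes, and in WT, as for 1.91%, while the ERaKO E2 arrays spread over both sides of placebo.

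With E2, Fgfr3 was -0.87 ± 0.30 in ERaKO minus WT (adjusted p = 0.43) and -0.91 ± 0.34 in ERaKO minus ERbKO (adjusted p = 0.33). Without ERaKO E2 1, at 7.66 the highest of its group, the differences were -1.42 (adjusted p = 0.010) and -1.45 (adjusted p = 0.018), both past the threshold. Without ERaKO E2 3, at 5.75 the lowest, they were -0.46 (adjusted p = 0.83) and -0.50 (adjusted p = 0.56). With placebo the differences were 0.05 ± 0.30 and -0.13 ± 0.34 (adjusted p = 0.99 and 0.90). In the group order Fgfr3 was highest in ERbKO and WT with E2, at 7.48 ± 0.11 and 7.44 ± 0.25, and lowest in ERaKO with E2, at 6.57 ± 0.99 (SD).

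Fgf7, which encodes keratinocyte growth factor, a ligand made by mesenchymal cells that binds the epithelial form of FGFR2, was higher with E2 in WT. Its log2 signals there were 6.93, 6.57, 7.26, 6.55 and 6.28 with E2, against 6.18, 6.19, 5.75, 5.37 and 5.95 with placebo, a difference of 0.83 ± 0.21 (ratio 1.77). In ERaKO they were 6.55, 6.49 and 6.37 with E2, against 6.22, 6.70 and 6.22 with placebo (0.09 ± 0.27, adjusted p = 0.99). In ERbKO they were 6.25, 6.11 and 6.49 with E2, against 6.19, 5.29 and 5.45 with placebo (0.64 ± 0.27, adjusted p = 1.0). The WT arrays with E2 lay wholly above those with placebo, as for 1.91% of named genes, while ERaKO and ERbKO arrays overlapped. With placebo all ERaKO arrays lay above all WT arrays, by 0.49 ± 0.24 (adjusted p = 0.96), as for 1.54% of named genes.

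The second probe set of Fgf7 departed from the first in ERbKO. There it lay at 4.43, 4.50 and 4.55 with E2, against 4.48, 4.31 and 4.50 with placebo, a difference of 0.06 ± 0.19, while its WT difference was 0.72 ± 0.14. In ERaKO it was 0.08 ± 0.19. With E2 its ERaKO and ERbKO arrays all lay below the WT arrays, with differences of -0.60 ± 0.17 (adjusted p = 0.23) and -0.56 ± 0.17 (adjusted p = 0.81). Such a separation on the low side occurred for 1.58% of named genes in ERaKO and 4.36% in ERbKO. For the first probe set these differences were -0.25 ± 0.24 and -0.43 ± 0.24, with overlap. With placebo, ERaKO minus ERbKO was 0.74 ± 0.27 in the first probe set, without overlap (adjusted p = 0.47), and -0.05 ± 0.19 in the second. In that contrast 14.9% of named genes were higher without overlap.

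Fgf1, the ligand that binds every FGF receptor, had overlapping arrays between E2 and placebo in each genotype. Its log2 signals were 8.27, 8.80 and 8.45 in ERaKO aortas with E2, against 8.21, 8.74 and 8.24 in ERaKO aortas with placebo (0.11 ± 0.27, adjusted p = 0.99). They were 8.39, 7.97 and 7.96 in ERbKO aortas with E2, against 8.32, 8.54 and 8.80 in ERbKO aortas with placebo (-0.45 ± 0.27, adjusted p = 1.0). In WT they ranged from 7.80 to 8.39 with E2, against 7.27 to 8.45 with placebo (-0.07 ± 0.21). The third Fgf1 probe set was -0.91 ± 0.36 for E2 minus placebo in ERbKO (adjusted p = 1.0). It lay at 6.54, 5.50 and 5.54 with E2, against 6.53, 6.81 and 6.95 with placebo, so its first E2 array overlapped placebo.

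**Figure D3:**
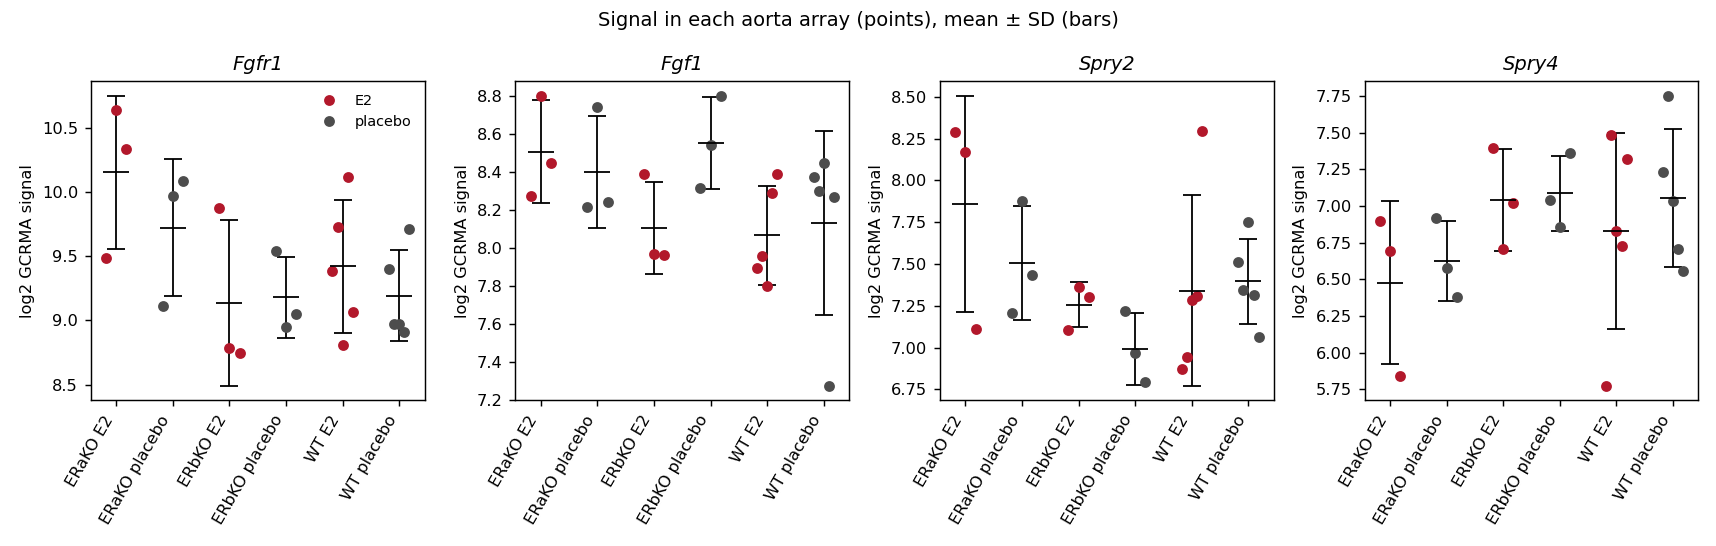
Log2 signal (vertical axis) of Fgfr1, Fgf1, Spry2 and Spry4 in each aorta, by group (horizontal axis); points are arrays, red for E2 and grey for placebo, and bars are mean ± SD. E2 and placebo arrays overlap for each of these genes in each genotype.

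Of the Sprouty genes, Spry2 and Spry4 encode feedback inhibitors of the Ras and MAP kinase cascade, and neither was called in any contrast. Spry2 had log2 signals of 8.29, 8.17 and 7.11 in ERaKO aortas with E2, against 7.21, 7.88 and 7.43 in ERaKO aortas with placebo (0.35 ± 0.33, adjusted p = 0.91). In ERbKO it had 7.11, 7.36 and 7.30 with E2, against 7.22, 6.97 and 6.79 with placebo (0.26 ± 0.33, adjusted p = 1.0), and in WT it differed by -0.06 ± 0.25. Spry4 had 6.90, 6.70 and 5.84 in ERaKO aortas with E2, against 6.92, 6.58 and 6.38 in ERaKO aortas with placebo (-0.15 ± 0.38, adjusted p = 0.99). In ERbKO it had 7.40, 6.71 and 7.02 with E2, against 7.04, 6.86 and 7.36 with placebo (-0.05 ± 0.38, adjusted p = 1.0), and in WT it differed by -0.23 ± 0.29. E2 and placebo arrays overlapped in each genotype for both genes. The second Spry4 probe set differed in sign from the first in WT, with means of 4.61 with E2, against 4.44 with placebo. In ERbKO it did so too, at 4.49 with E2, against 4.48 with placebo. With E2, ERaKO minus ERbKO was 0.60 ± 0.33 for Spry2 (adjusted p = 0.50) and -0.56 ± 0.38 for Spry4 (adjusted p = 0.59).

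Read over the contrasts, 0 of the 7 genes were called for E2 against placebo in ERaKO, where 0.0049% of all tested probe sets were called, and 0 in ERbKO, where 0.098% were. With replicate number as a block the counts were again 0 of 7, beside 1.67% of probe sets in ERaKO and 0.171% in ERbKO. Without the block, at an unadjusted p under 0.05, the counts were 1 in ERaKO, Fgfr2, and 2 in ERbKO, Fgfr2 and Fgf7, against 6.79% and 2.40% of all tested probe sets. In WT, where the choice was made, 1 of 7 was called, Fgfr2, against 0.387% of probe sets. When the mean of a gene's probe sets stood for it, that 1 was Fgf7 in place of Fgfr2. Between ERaKO and ERbKO 0 of 7 were called, both with placebo (0.0343% of probe sets) and with E2 (0.23%). Under an unadjusted 0.05 the counts were 1 with placebo and 3 with E2, beside 10.3% and 11.2% of probe sets. Knockout against WT with placebo gave 0 of 7 in ERaKO and 0 of 7 in ERbKO (each 0.0049% of probe sets). Under an unadjusted 0.05 both counts were 0, beside 3.62% and 3.04% of probe sets. ERbKO against WT with E2 gave 0 (0.0049%), with 1 under an unadjusted 0.05, beside 5.74%. For the differences of E2 effects, 1 of 7, Fgfr2, was called for ERaKO minus WT (0.0686% of probe sets) and 0 with replicate number as a block. That difference contains the WT arrays of the choice, so the call is not independent of it. ERbKO minus WT and ERaKO minus ERbKO gave 0 (0% and 0.0441%), with 0 and 1 under an unadjusted 0.05, beside 1.28% and 2.79% of probe sets.

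**Figure D4:**
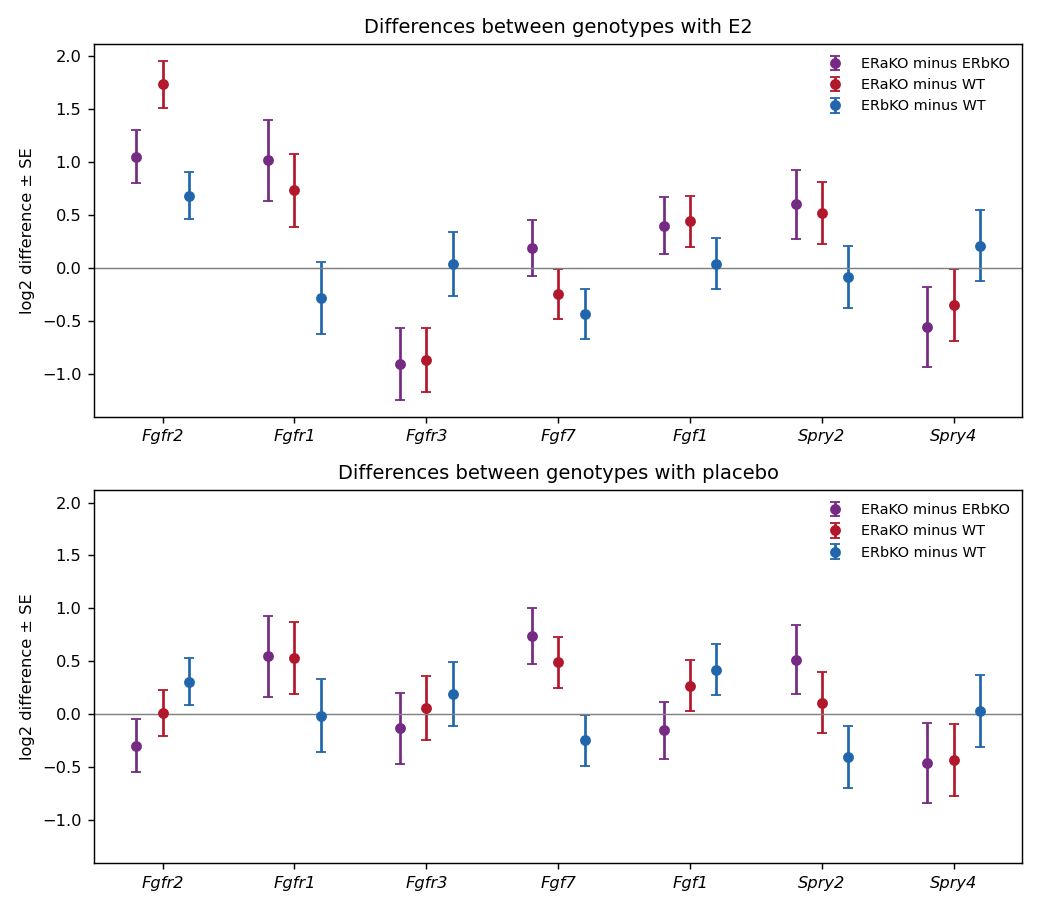
Differences between genotypes with E2 (upper panel) and with placebo (lower panel) for the 7 tested member genes (horizontal axis); points are log2 differences (vertical axis) of ERaKO minus ERbKO, ERaKO minus WT and ERbKO minus WT, and bars are SE of the limma fit. With E2, Fgfr2 lies at 1.05, 1.74 and 0.68; with placebo its values lie between -0.30 and 0.31.

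A list of 73 other genes of the pathway covered further ligands, receptors and co-receptors, carriers, heparan sulfate enzymes, adaptors and kinases, inhibitors, targets and splicing factors. Of these, 65 had a probe set with 1 symbol and 37 were tested. Few ligands were measurable, with 2 of 18 tested, Fgf11 and Fgf13. The splicing factors Esrp1 and Esrp2, which choose the epithelial receptor exon, were below the filter. All 11 of the adaptors and kinases with a probe set and 5 of 7 heparan sulfate enzymes were tested. In limma 0 of the 37 were called in any of the 12 contrasts. Without adjustment, limma p for E2 against placebo fell under 0.05 with 2 genes higher and 1 lower in ERaKO. The count was 0 in ERbKO, and 2 higher and 3 lower in WT. Over all tested probe sets the shares in either direction were 6.79% in ERaKO, 2.4% in ERbKO and 7.97% in WT. The median difference of the list was 0.07 in ERaKO, -0.04 in ERbKO and 0.00 in WT, beside 0.01, -0.04 and 0.02 over all named genes.

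Hs6st2, a sulfotransferase that modifies the heparan sulfate FGFs bind, had the smallest p of the list in several contrasts, and its E2 minus placebo differences had the signs of those of Fgfr2 in all 3 genotypes. Its log2 signals ranged from 4.72 to 5.22 in ERaKO aortas with E2, against 3.98 to 4.18 in ERaKO aortas with placebo, a difference of 0.84 ± 0.27 (adjusted p = 0.65). In ERbKO they ranged from 3.46 to 4.08 with E2, against 4.08 to 4.58 with placebo (-0.57 ± 0.27, adjusted p = 1.0), and in WT from 3.32 to 4.06 with E2, against 3.87 to 4.90 with placebo (-0.55 ± 0.21, adjusted p = 0.49). With E2, ERaKO exceeded WT by 1.12 ± 0.24 (adjusted p = 0.059) and ERbKO by 1.19 ± 0.27 (adjusted p = 0.087). With replicate number as a block, Hs6st2 was called for E2 in ERaKO (adjusted p = 0.043), for ERaKO minus WT with E2 (0.0495) and for the difference of E2 effects between ERaKO and WT (0.047). Its signals lay close to the filter of 4.

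Klb, the co-receptor beta-klotho, an adipocyte and liver gene, ranged from 3.58 to 3.84 in ERaKO aortas with E2, against 5.80 to 6.35 in ERaKO aortas with placebo. Such a separation on the low side occurred for 10.9% of named genes in this contrast. The Klb difference did not pass the threshold (adjusted p = 0.68) and did with the replicate block (adjusted p = 0.034). All 3 E2 arrays lay under the filter of 4, so its size is not given. The white adipocyte markers, 5 of 7 tested, ranged from 9.27 to 10.43 in the same E2 aortas, against 11.01 to 11.23 with placebo, and all 5 were lower, with a median of -1.27. The part of fat in the Klb difference was not tested. Flrt2, a membrane protein that binds FGF receptors, was 0.91 ± 0.25 for E2 minus placebo in WT (adjusted p = 0.19). It was 0.65 ± 0.32 in ERbKO (adjusted p = 1.0) and -0.01 ± 0.32 in ERaKO (adjusted p = 1.0). Its E2 arrays lay wholly above placebo in WT, as for 1.91% of named genes, and in ERbKO, as for 3.92%. Ccnd1, the cyclin D1 gene and a target of the cascade, was -0.59 ± 0.61, -0.71 ± 0.61 and -1.12 ± 0.47 in ERaKO, ERbKO and WT (adjusted p = 0.93, 1.0 and 0.57).

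**Figure D5:**
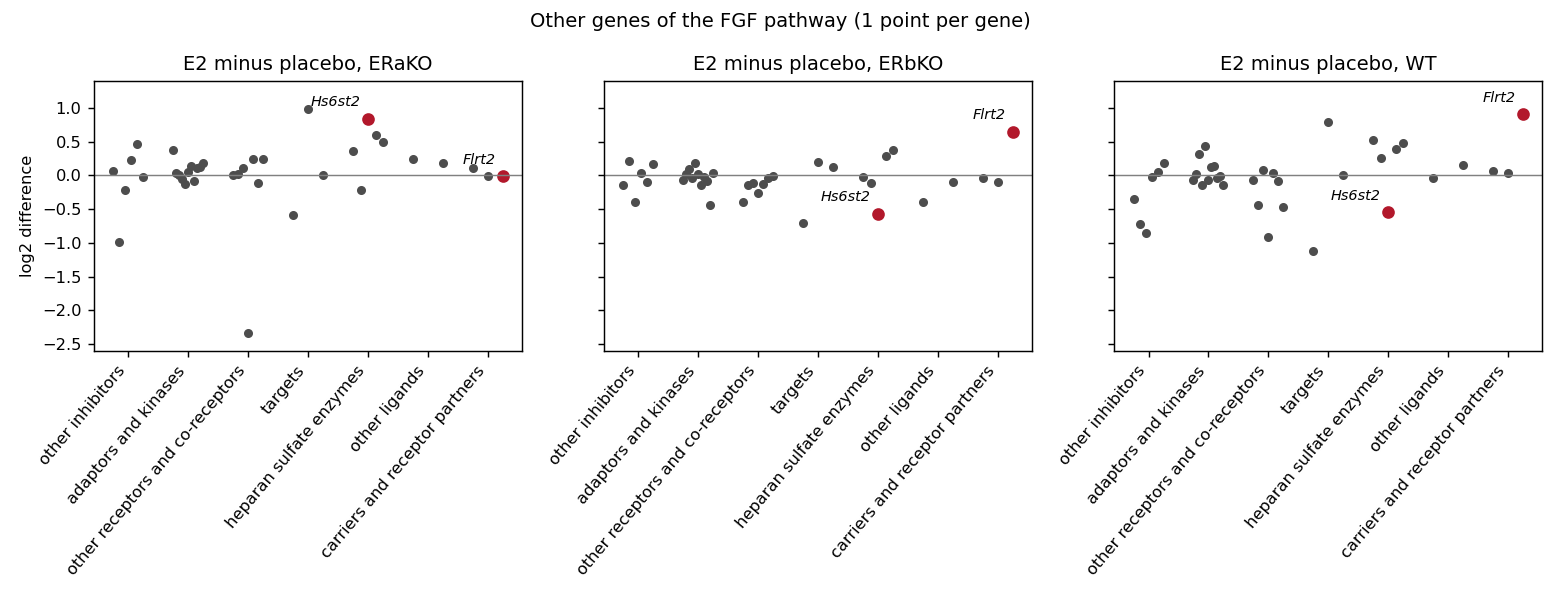
Difference between E2 and placebo (vertical axis, log2) for the 37 other tested genes of the FGF pathway, grouped by role (horizontal axis), in ERaKO, ERbKO and WT aortas; each point is a gene. Hs6st2 and Flrt2 are marked in red, and 0 of the genes were called.

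Over the 22 arrays, the genes most like Fgfr2 were Postn (Pearson r 0.83), Col18a1 (0.83), Rgs4 (0.83), Rgs5 (0.80) and Sparc (0.80), among 10260 named genes. Postn, Col18a1 and Sparc encode proteins of the extracellular matrix, and Rgs4 and Rgs5 encode regulators of G protein signalling found in mural cells. These genes were picked for likeness on the same arrays, so their differences only describe it. For E2 minus placebo Rgs5 was 0.20 ± 0.29 in ERaKO, -1.14 ± 0.29 in ERbKO and -1.41 ± 0.22 in WT, and Rgs4 was 0.77 ± 0.50, -0.75 ± 0.50 and -1.48 ± 0.39. Of the members, Fgf1 was the most like Fgfr2 (r 0.68), followed by Fgfr1 (0.36), and Fgfr3 and Fgf7 ran the other way (-0.44 and -0.41).

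When each array was taken as its deviation from its group mean, the closest genes were Mgat4a (0.84), Actn4 (0.84), Rrnad1 (0.84), Gipc2 (0.83) and Asb1 (0.83). None of the 5 genes above was among them. Fgf1 again led the members (0.76), with Spry4 at 0.50, Fgfr1 at 0.38, Spry2 and Fgfr3 both at 0.25 and Fgf7 at -0.14, so the sign of Fgfr3 turned. Arrays share normalisation and tissue make-up, so these r describe likeness in this set of arrays.

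Marker lists of several cell types had median differences between the groups in which Fgfr2 differed, but few single markers were called. Of 8 endothelial markers, E2 against placebo called 1 higher in WT, 1 higher in ERbKO and 0 in ERaKO. For adipocyte, smooth muscle and adventitial fibroblast markers the count was 0 in each genotype. Over all tested probe sets 0.387%, 0.098% and 0.0049% were called in WT, ERbKO and ERaKO. The endothelial markers were all tested, and their mean ranged from 6.55 to 7.00 in ERaKO aortas with E2, against 7.04 to 7.35 with placebo. In that contrast 10.9% of single named genes lay wholly lower with E2. Of the 8 endothelial markers 8 were lower, with a median of -0.50. In WT they ranged from 6.97 to 7.69 with E2, against 6.48 to 7.29 with placebo, with 6 of 8 higher and a median of 0.40. In both genotypes they differed in the direction opposite to Fgfr2, and in ERbKO their median was 0.08, with 5 of 8 higher. White adipocyte markers were lower with E2 in ERaKO, ERbKO and WT alike, with medians of -1.27, -0.31 and -0.67, while Fgfr2 was higher in the first genotype and lower in the others. Brown adipocyte markers had medians of -1.23, -0.24 and -1.07, with 5, 4 and 6 of 6 lower, and ranged in WT from 8.62 to 10.05 with E2, against 9.63 to 11.40 with placebo. Smooth muscle markers differed by medians of 0.23, -0.08 and 0.26, and adventitial fibroblast markers by 0.14, 0.00 and -0.09.

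Of 6 epithelial markers, Epcam and Krt18 were tested and Cdh1, Krt8, Krt5 and Krt14 were below the filter. The tested pair had group means of 6.61 in ERaKO with E2, 6.50 in ERaKO with placebo, 6.09 in ERbKO with E2, 6.38 in ERbKO with placebo, 6.46 in WT with E2 and 5.99 in WT with placebo. That order differs from the order of Fgfr2, in which WT with E2 was lowest, while ERaKO with E2 was highest in both. The part of epithelial cells or of any other cell type in the Fgfr2 difference was not tested.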

How the data were processed

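Total RNA of 22 aortas, 5 ug per array, was hybridised to Affymetrix mouse arrays, 1 aorta per array, per the labels. The authors made the deposited log2 values with GCRMA, which corrects background by probe sequence and gives 1 value per probe set, per the submitters' processing notes. They also deposited limma p-values and log2 fold changes. A limma fit over all probe sets came within 4.94e-08 of the deposited p-values and 4.98e-08 of the log2 changes, so those p-values are unadjusted. The number of arrays limits the precision.

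Here limma 3.58.1 in R 4.3.3 fitted 1 mean per group over all 22 arrays, after 64 control probe sets were left out, with the filter of log2 above 4 on 3 arrays or more. It was tested on simulated data: for E2 against placebo in ERaKO, over 20410 probe sets, 39 of 100 changes of log2 1 and 89 of 100 of log2 2 were recovered, with 10 false calls. P-values are two-sided, with Benjamini-Hochberg adjustment across all probe sets tested in the contrast; a call has an adjusted p under 0.05. Errors of differences are SE of the fit, and errors of group means are SD.

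The labels give arrays of a genotype the same replicate numbers under E2 and placebo. Deviations from group means of the 11 same-number pairs correlated with r of 0.25 to 0.66. The same number gave the best match in 11 of 11, so the numbers were taken to pair the arrays. The main fit treats the arrays as independent, so its p-values for E2 against placebo leave the pairing out. The replicate block, which is an alternative, uses the pairing.

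The members, gene lists, contrasts and alternatives were chosen with earlier results of these data known. Named pathway genes are up to 3 of the list with the smallest unadjusted p in a contrast, and likeness genes are the 5 with the highest Pearson r. Gene names come from the platform annotation, and promoter letters from RefSeq. Promoters of members on chromosome 18 were not used here. Alternatives were other filters, normalisations, variance models, array weights, fewer groups in the fit, the mean of a gene's probe sets, the replicate block, and leaving out each array.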

Additional observations from a re-analysis of the deposited data

Results flagged for a closer look

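Of 26 groups of 5 arrays checked for member probe sets, 3 held an array far from the rest of its group, and chance gives about 1 in 20. The second Fgf7 probe set was lowest at 3.89 in WT placebo 2, and the first Fgf1 probe set was lowest at 7.27 in WT placebo 4. The second Spry4 probe set was highest at 5.18 in WT E2 4.

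The E2 difference of Fgfr2 was 1.72 larger in ERaKO than in WT, and the limma test of that difference passed the threshold. It holds the WT arrays in which Fgfr2 was noticed, so the call is not independent of the choice. With the replicate block the difference was not called. The call was kept in 10 of 31 alternatives, among them 5 of the 22 fits without 1 array.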

How the results depend on the processing

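Over 84 member differences and 31 alternatives, 2604 comparisons were made: 2566 kept their side of the threshold, 29 lost a call, 9 gained one, and 0 called values changed sign. In 75 comparisons a value changed sign with no call on either side, in 24 differences of at most 0.29. Members called out of 7 changed as follows. For E2 in WT the count was 0 when only the groups of the contrast were fitted, and for ERaKO minus WT with E2 it was also 0. With array weights the count for E2 in ERbKO was 3, where 240 probe sets (1.18%) were called. These 3 were Fgfr2 (-0.82, adjusted p = 0.014), Fgf7 (0.84, adjusted p = 0.022) and Fgf1 (-0.65, adjusted p = 0.037). Array weights also gave 1 for ERaKO minus ERbKO with placebo (Fgf7), where 1598 probe sets (7.83%) were called. With E2 they gave 1 (Fgfr2), where 80 probe sets (0.392%) were called. For the E2 difference in ERaKO minus WT the count was 0 with no filter, with only the groups of the contrast, with the mean of probe sets and with the replicate block. The limma fits without 1 array gave 0 to 1 for E2 in WT, 1 to 2 for ERaKO minus WT with E2, 0 to 1 for ERaKO minus ERbKO with E2 and 0 to 1 for the E2 difference in ERaKO minus WT, where the call was kept in 5 of 22, and 0 elsewhere. Leaving out WT E2 1, WT E2 3 or any of WT placebo 1 to 3 ended the call of Fgfr2 in WT, as did the mean of probe sets, under which Fgf7 was called there instead. Of the other pathway genes, 1 was called for ERaKO minus WT with E2 under the mean of probe sets (Hs6st2), beside 0.39% of named genes. Under array weights 1 was called for ERbKO minus WT with E2 (Shc1), beside 1.17% of probe sets. Also under array weights, 1 was called for ERaKO minus ERbKO with placebo (Ccnd1), beside 7.83% of probe sets. Fits without 1 array gave 0 to 1 for ERaKO minus WT and for ERaKO minus ERbKO with E2, and 0 elsewhere. Signals near or under log2 4 limit Hs6st2, Klb and the second Fgf7 probe set.

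With the replicate block the count of other pathway genes was 2 for E2 in ERaKO (Klb, Hs6st2), 1 for ERaKO minus WT with E2 and 1 for the E2 difference in ERaKO minus WT (Hs6st2 in both), and Fgfr2 lost its call for the E2 difference in ERaKO minus WT; apart from these the block changed no call of a member or other pathway gene. Over all probe sets the block called 347 for E2 in WT, 340 in ERaKO and 35 in ERbKO, against 79, 1 and 20 without it.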
